A study of Homo sapiens with 12 samples.

Results

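Genes of the ubiquitin system that are named by family were followed in a neuroblastoma cell line, the MYCN-amplified SK-N-BE(2), 6 h after exposure to the bromodomain inhibitor JQ1, the deacetylase inhibitor panobinostat or both. Cells received 1 µM JQ1, 10 nM panobinostat, 1 µM JQ1 with 10 nM panobinostat, or vehicle, and each of these 4 groups had 3 arrays of total RNA. JQ1 occupies the bromodomains of the BET proteins, which bind acetylated histones, and panobinostat inhibits histone deacetylases. All groups come from the same line grown in medium with serum. The labels do not say whether the arrays of a group came from separate cultures, so p-values measure the spread between these arrays, which may be technical. The members are all genes whose symbol carries a family prefix of the ubiquitin-activating (UBA1 to UBA7), ubiquitin-conjugating (UBE2), cullin (CUL), SKP and RBX1, F-box (FBXO, FBXL, FBXW), deubiquitinase (USP, OTUD, UCHL) or proteasome (PSM) series. This rule found 151 of the 14884 genes measured: 4 activating enzymes (E1), 27 genes of the conjugating enzyme series (E2), 9 members of the cullin core, 56 F-box genes and 55 deubiquitinases. Of the 27 E2 genes 4 are transcribed pseudogenes. The PSM genes of the proteasome, RBX1, SKP2, FBXW7, UBE2C, UBE2M and UBA2 were not analysed here.

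Ubiquitin is passed from an E1 to an E2 and then, with the help of a ligase (E3), onto a target protein, which is often then degraded by the proteasome. In the SCF ligases the scaffold cullin CUL1 holds the E2 at one end and, through the adaptor SKP1, an F-box protein at the other, and the F-box protein chooses the target. Cullins are active when the ubiquitin-like protein NEDD8 is attached to them by its own E1 and E2, and deubiquitinases remove ubiquitin again. In neuroblastoma the turnover of the MYCN protein runs through this system, with the deubiquitinase USP7 among the enzymes known to stabilise it.

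The promoters of 4 members that changed by at least 2-fold with the combination are shown because 3 of them stand between the member and a gene that runs the other way, and because USP53 had the largest rise. Each window holds 250 bases before and 50 bases from the start of the gene, 5′ to 3′ on the gene's strand, from RefSeq on GRCh38.p14. Capitals mark matches on either strand to 7 short motifs. They are the GC box GGGCGG, the CCAAT box CCAAT, the ETS motif CCGGAAG, the E-box CACGTG and the CRE TGACGTCA. The others are the TATA box TATAAA and an NRF1 motif in which a base is left free. FBXO8 (chr4:174283618-174283917, minus strand) fell, and FBXO48 (chr2:68467245-68467544, minus strand), USP20 (chr9:129835208-129835507, plus strand) and USP53 (chr4:119212463-119212762, plus strand) rose.
FBXO8: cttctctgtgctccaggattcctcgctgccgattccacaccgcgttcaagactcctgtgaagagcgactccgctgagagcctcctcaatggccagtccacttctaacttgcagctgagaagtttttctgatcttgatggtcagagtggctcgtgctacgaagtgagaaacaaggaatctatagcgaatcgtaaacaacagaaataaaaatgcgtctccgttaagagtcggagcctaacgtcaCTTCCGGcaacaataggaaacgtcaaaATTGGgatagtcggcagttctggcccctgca
FBXO48: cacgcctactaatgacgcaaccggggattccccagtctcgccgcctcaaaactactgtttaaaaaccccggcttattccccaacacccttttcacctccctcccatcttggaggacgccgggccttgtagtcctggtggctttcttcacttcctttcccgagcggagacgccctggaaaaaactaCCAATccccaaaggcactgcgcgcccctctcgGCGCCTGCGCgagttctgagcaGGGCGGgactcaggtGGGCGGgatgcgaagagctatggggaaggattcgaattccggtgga
USP20: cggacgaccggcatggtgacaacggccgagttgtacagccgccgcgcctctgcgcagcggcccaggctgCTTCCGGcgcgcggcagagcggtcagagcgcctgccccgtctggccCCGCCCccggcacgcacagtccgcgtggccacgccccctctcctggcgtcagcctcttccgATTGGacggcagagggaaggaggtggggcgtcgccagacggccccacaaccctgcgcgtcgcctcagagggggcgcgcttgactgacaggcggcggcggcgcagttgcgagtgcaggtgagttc
USP53: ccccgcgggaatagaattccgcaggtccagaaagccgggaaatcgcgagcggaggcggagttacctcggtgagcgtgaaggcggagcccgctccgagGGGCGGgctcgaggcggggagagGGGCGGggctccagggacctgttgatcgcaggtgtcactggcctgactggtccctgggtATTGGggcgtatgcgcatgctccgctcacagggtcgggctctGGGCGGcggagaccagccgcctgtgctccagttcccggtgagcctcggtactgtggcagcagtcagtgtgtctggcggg
The FBXO8 window holds 1 ETS motif and 1 CCAAT box and no GC box. The USP53 window holds 3 GC boxes and 1 CCAAT box, the FBXO48 window 2 GC boxes, 1 CCAAT box and 1 NRF1 motif, and the USP20 window 1 each of the GC box, the CCAAT box and the ETS motif.

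A RefSeq window was found for 116 of the 151 members. A GC box stood in 76.7% of these, against 58.5% of the 15843 protein-coding genes with a window and 44.6% of all 27305 genes with one. The ETS motif was in 22.4% of member windows and in 14.2% of protein-coding windows, and the NRF1 motif was in 18.1% and 8.58%. The CCAAT box went the other way, at 25.9% of member windows against 36.4% of protein-coding ones. These reference windows were not limited to genes measured here or to genes with a high signal. Whether the members differ from such genes was not tested. Members that rose with the combination held a GC box in 22 of 24 windows, those that fell in 29 of 38, and those not called in 38 of 54. The letters of 2 motifs may overlap in a window, and a match is a description of the letters in these windows.

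Values are taken as log2 signal, 1 value per transcript cluster (the probes assigned to 1 transcribed locus) and array. Because no source used here gives the log base, every fold rests on that reading. Arrays of the same group correlated at 0.991 to 0.995 over all genes, and arrays of different groups at 0.962 to 0.989. Of 10 markers of sympathetic neuroblastoma 8 were measured, with vehicle means of 8.73 (CHGB) to 12.8 (STMN2), and their summed log2 signal was 86.5 to 86.7 with JQ1, 83.4 to 83.7 with panobinostat and 81.4 to 81.5 with both compounds, against 87.2 to 87.3 in vehicle arrays. Among markers of other cell types 2 of 4 mesenchymal, 1 of 3 leukocyte and 2 of 3 epithelial genes were measured. Their summed log2 signal was 17.8 to 18.1 with both against 18.4 to 19.2 in vehicle for the mesenchymal pair, 8.23 to 8.42 against 7.94 to 8.02 for the leukocyte gene, and 13.5 to 13.8 against 13.7 to 14.0 for the epithelial pair. Vehicle means were 11.8 for LUM and 7.03 for PRRX1 (mesenchymal), 7.99 for CD68 (leukocyte), and 7.06 for EPCAM and 6.82 for KRT19 (epithelial). LUM thus read within the range of the neuroblastoma markers. The values carry no detection calls, so it cannot be told whether a marker or a dim member is present, and the part of these markers in the results below was not tested. A lower signal in a bulk sample can mean fewer cells with the RNA or less RNA per cell, and these cannot be told apart. The 3 comparisons with vehicle share the same vehicle arrays.

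The ubiquitin genes changed in both directions and in similar numbers. A gene was called at a Benjamini-Hochberg adjusted p under 0.05 in a limma fit over all genes. JQ1 raised 18 and lowered 18 of the 151 members (23.8%, background 17.6% of all genes, with 8.18% higher and 9.47% lower). Panobinostat raised 34 and lowered 35 (45.7%, background 29.3%, with 14.5% higher and 14.8% lower). The combination raised 36 and lowered 45 (53.6%, background 37.7%, with 18.2% higher and 19.5% lower). Most members are protein-coding and bright, and against the 8149 protein-coding genes at or above the 40th percentile of mean signal the gap is smaller. Among the 123 members of that kind JQ1 called 27.6% against 26.8%, panobinostat 51.2% against 43.5%, and the combination 61.0% against 56.3%. The count of members raised by JQ1 dropped to 10 without vehicle replicate 2 and to 11 without JQ1 replicate 1. The counts for panobinostat and the combination moved by less than 1.5 times without any single array.

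Changes of at least 2-fold grew in number with the combination. JQ1 gave 0 such members (background 0.867%), although limma called 36 members. With JQ1, 56 of 151 members and 4336 of all 14884 genes had an unadjusted p under 0.05 at any fold. Panobinostat gave 2 members at least 2-fold higher and 3 lower (background 2%), and the combination 6 higher and 11 lower (background 5.11%). The 6 were the F-box genes FBXO3, FBXO33 and FBXO48 and the deubiquitinases OTUD7A, USP20 and USP53. The 11 were CUL1 and CUL5, the E2 genes UBE2E3 and UBE2Q2, the F-box genes FBXO4 and FBXO8, and the deubiquitinases USP7, USP13, USP21, USP24 and USP46. Signal did not overlap between treated and vehicle arrays for 65 members with JQ1, 90 with panobinostat and 92 with the combination, where the shares over all genes were 33.5%, 39.8% and 46.1%.

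By class the calls ran as follows. With the combination the E1 class had 2 higher and 1 lower of 4. The E2 class had 3 higher and 10 lower of 27 and the cullin core 0 higher and 5 lower of 9, and F-box genes had 14 higher and 13 lower of 56 and deubiquitinases 17 higher and 16 lower of 55. Panobinostat gave 4 and 7 for the E2 class, 0 and 4 for the cullin core, 14 and 9 for F-box genes and 15 and 15 for deubiquitinases. JQ1 gave 2 and 2 for the E2 class, 0 and 1 for the cullin core, 11 and 6 for F-box genes and 5 and 8 for deubiquitinases. With the combination the shares called were 48.15% of E2, 55.56% of cullin-core, 48.21% of F-box and 60% of deubiquitinase genes. Beside these stand 37.7% of all genes and 56.3% of the brighter protein-coding genes. Panobinostat called 40.74%, 44.44%, 41.07% and 54.55% of these classes, beside 29.3% and 43.5%. JQ1 called 14.81%, 11.11%, 30.36% and 23.64%, beside 17.6% and 26.8%. The classes were not limited to bright genes. Median absolute log2 changes with the combination were 0.42 for the cullin core, 0.38 for the 4 E1 genes, 0.34 for deubiquitinases, 0.25 for F-box genes and 0.23 for the E2 class, against 0.20 over all genes. The difference between classes was not tested, because genes are not replicates. Of the cullin core 5 members had an unadjusted p under 0.05 with the combination, the same 5 that were called lower. With panobinostat CUL2 stood higher than vehicle (0.18 ± 0.07, unadjusted p = 0.0328 in limma) and was not called (adjusted p = 0.0929). The 2 E2 genes raised by JQ1 became 1 without JQ1 replicate 1 or 2 or vehicle replicate 2 or 3, and the 2 it lowered became 1 without any 1 of 7 single arrays (each JQ1 array, vehicle replicates 1 and 2, panobinostat replicate 2 and replicate 3 with both). The count of 0 cullin-core genes higher with the combination became 1 without vehicle replicate 1 or the 2 arrays farthest from their groups. With panobinostat the count of 0 became 2 with quantile normalization, 1 without genes under the 40th percentile and 2 without those 2 arrays. The 11 F-box genes raised by JQ1 became 6 without JQ1 replicate 1 or vehicle replicate 2 and 7 without JQ1 replicate 3, the 5 deubiquitinases raised by JQ1 became 3 without JQ1 replicate 2 or vehicle replicate 2, and the 9 F-box genes lowered by panobinostat became 5 without panobinostat replicate 3.

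**Figure D1:**
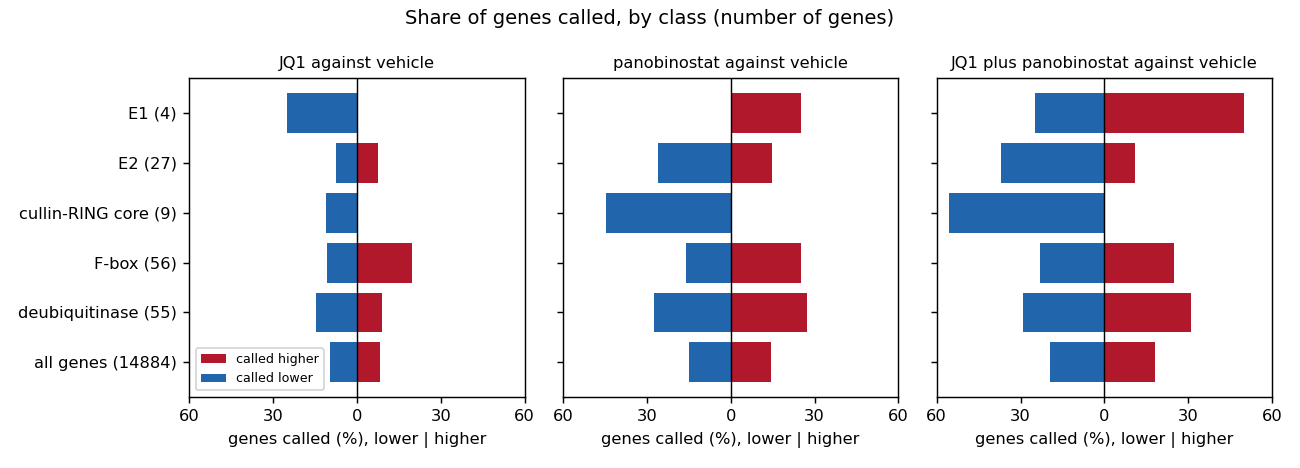
Share of genes called higher (right) and lower (left), in percent, for each class and for all genes, in the 3 comparisons with vehicle. Numbers in brackets are the genes per class. The cullin bar with both compounds runs to the left alone (5 of 9 lower), while F-box and deubiquitinase bars extend to both sides.

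**Figure D2:**
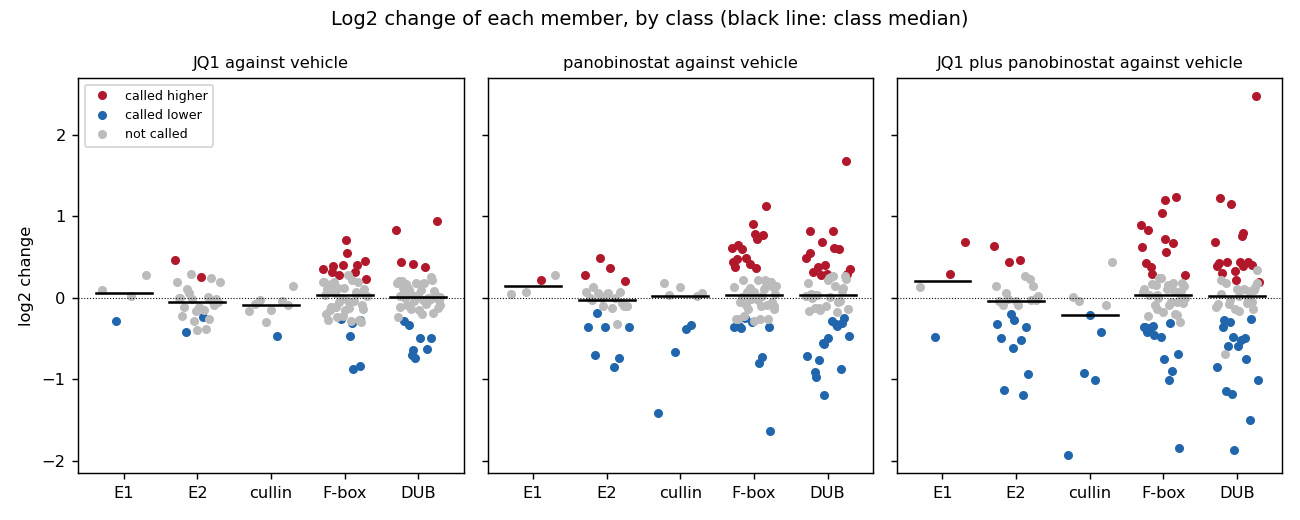
Log2 change of every member against vehicle by class, for JQ1, panobinostat and both. Each point is 1 gene, coloured by its call, and the black line is the class median. With both compounds the points run from -1.93 (CUL1) to 2.47 (USP53), while the class medians of the E2, F-box and deubiquitinase genes are -0.04, 0.03 and 0.02.

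Of the 4 activating enzymes UBA6 and UBA7 rose, UBA3 fell and UBA1 was not called with the combination. UBA1, the main E1 for ubiquitin, read 11.91, 11.93 and 11.88 in the JQ1 arrays, 11.85, 11.85 and 11.87 in the panobinostat arrays, 11.90, 11.96 and 11.96 in the arrays with both, and 11.85, 11.81 and 11.77 in the vehicle arrays. Its change with both was 0.13 ± 0.06 (adjusted p = 0.0929), and it was not called in any comparison with vehicle. With quantile normalization, or without genes under the 40th percentile, UBA1 was called in 1 of them. UBA3, the catalytic subunit of the E1 for NEDD8, read 10.87, 10.86 and 10.85 in the JQ1 arrays, 11.20, 11.20 and 11.24 in the panobinostat arrays, 10.61, 10.66 and 10.73 in the arrays with both, and 11.18, 11.12 and 11.14 in the vehicle arrays. The arrays with JQ1 and with both lay below all vehicle arrays, and the panobinostat arrays lay above them. UBA3 fell, with log2 changes of -0.29 with JQ1 (adjusted p = 0.00491) and -0.48 with both (adjusted p = 3.94e-05), and its change with panobinostat was 0.07 ± 0.06 (adjusted p = 0.429). UBA7, the E1 for the interferon-induced modifier ISG15, had 7.16, 7.21 and 7.08 with both and 6.22, 6.58 and 6.61 with vehicle, and rose by 0.68 ± 0.14 (adjusted p = 0.00188). UBA6, an alternative E1 for ubiquitin, rose by 0.29 ± 0.07 with both (adjusted p = 0.00886). The E2 that accepts ISG15, UBE2L6, went down while its E1 went up. UBE2L6 had 6.91, 7.21 and 6.99 with both and 7.74, 7.68 and 7.56 with vehicle, and fell by 0.62 (adjusted p = 0.000201). USP18, which removes ISG15, was not called in any comparison with vehicle, with changes of 0.05 with JQ1, -0.13 with panobinostat and -0.08 with both.

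Among the E2 genes 10 fell and 3 rose with the combination, and the largest changes were falls. The genes that fell include UBE2MP1, a transcribed pseudogene (-0.28, adjusted p = 0.0232). UBE2MP1 was also among those called lower with panobinostat (-0.36, adjusted p = 0.00701). UBE2E3 (cluster 16888232, chromosome 2) read 7.99, 7.86 and 7.98 in the JQ1 arrays, 7.61, 7.68 and 7.69 in the panobinostat arrays, 7.20, 7.26 and 7.24 in the arrays with both, and 8.40, 8.44 and 8.25 in the vehicle arrays. No array of a treated group overlapped the vehicle arrays, and the order from low to high was both, panobinostat, JQ1, vehicle, with no overlap between neighbours. UBE2E3 fell, with log2 changes of -0.42 with JQ1, -0.70 with panobinostat and -1.13 with both (2.19-fold, adjusted p = 2.39e-07). UBE2Q2 read 8.72, 8.68 and 8.74 in the JQ1 arrays, 7.84, 8.12 and 8.04 in the panobinostat arrays, 7.53, 7.60 and 7.86 in the arrays with both, and 9.11, 8.78 and 8.68 in the vehicle arrays. Its JQ1 arrays overlapped the vehicle arrays, and its panobinostat arrays and those with both lay below them and overlapped each other. UBE2Q2 fell, with log2 changes of -0.85 with panobinostat (adjusted p = 0.000277) and -1.19 with both (adjusted p = 1.04e-05), and its change with JQ1 was -0.14 ± 0.12 (adjusted p = 0.504). UBE2R2, a close relative of CDC34 that serves the SCF ligases, had 9.84, 9.85 and 9.73 with both and 10.70, 10.85 and 10.67 with vehicle, and fell by 0.93 (adjusted p = 4.62e-06).

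The 3 conjugating enzymes that rose with the combination were UBE2A, UBE2O and UBE2H. UBE2A, which attaches ubiquitin to histone H2B together with the RNF20 and RNF40 ligase, read 10.59, 10.48 and 10.57 in the JQ1 arrays, 10.45, 10.25 and 10.37 in the panobinostat arrays, 10.69, 10.73 and 10.74 in the arrays with both, and 10.09, 10.04 and 10.10 in the vehicle arrays. Every treated array was above every vehicle array, and the rise was 0.47 ± 0.07 with JQ1 alone (adjusted p = 0.000655), 0.28 ± 0.07 with panobinostat alone (adjusted p = 0.00858, and 0.0529 without the 2 arrays farthest from their groups) and 0.64 ± 0.07 with both (adjusted p = 1.46e-05). UBE2O, a large enzyme that acts as both E2 and E3, had 10.54, 10.66 and 10.64 with both and 10.26, 10.03 and 10.17 with vehicle and rose by 0.46 ± 0.07 (adjusted p = 0.000322). UBE2H rose by 0.44 ± 0.10 with both (adjusted p = 0.00375) and by 0.49 ± 0.10 with panobinostat (adjusted p = 0.00285). UBE2S, which extends ubiquitin chains for the anaphase-promoting complex, was not called, at 0.25 with JQ1, 0.07 with panobinostat and 0.23 with both. Without JQ1 replicate 3 it was called in 1 comparison with vehicle.

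In the cullin core the largest change with panobinostat and with both was that of CUL1. CUL1 (cluster 17053019, chromosome 7), the scaffold of the SCF ligases, read 10.46, 10.55 and 10.35 in the JQ1 arrays, 9.20, 9.23 and 9.15 in the panobinostat arrays, 8.64, 8.78 and 8.64 in the arrays with both, and 10.65, 10.64 and 10.54 in the vehicle arrays. The JQ1 arrays reached into the vehicle range, while the panobinostat arrays and those with both lay below it and did not overlap each other. CUL1 fell, with log2 changes of -1.42 with panobinostat (2.67-fold, adjusted p = 3.73e-07) and -1.93 with both (3.81-fold, adjusted p = 8.95e-09), and its change with JQ1 was -0.16 ± 0.07 (adjusted p = 0.172). Added to panobinostat, JQ1 lowered it by a further 0.51 (adjusted p = 0.000858).

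CUL5, the scaffold for ligases with a SOCS box, followed another pattern. It read 9.54, 9.59 and 9.57 in the JQ1 arrays, 9.61, 9.77 and 9.56 in the panobinostat arrays, 8.88, 9.06 and 9.13 in the arrays with both, and 10.15, 9.99 and 9.96 in the vehicle arrays. All treated arrays were below all vehicle arrays, the arrays with both were the lowest, and the 2 single compounds overlapped each other. CUL5 fell, with log2 changes of -0.46 with JQ1 alone (adjusted p = 0.00285), -0.38 with panobinostat alone (adjusted p = 0.00494) and -1.01 with both (adjusted p = 2.51e-06). CUL4A, which works with DDB1, had 7.54, 7.96 and 7.67 with both and 8.83, 8.70 and 8.41 with vehicle, and fell by 0.93 (adjusted p = 0.000179). Its close relative CUL4B fell by 0.20 with both (adjusted p = 0.0277), a call lost without vehicle replicate 1 (0.0975) or replicate 1 (0.0914) or 3 (0.0547) with both, and was not called with panobinostat alone, at 0.13 ± 0.07 (adjusted p = 0.176). CUL7, which assembles with the F-box protein FBXW8, fell, with log2 changes of -0.34 with panobinostat and -0.42 with both (adjusted p = 0.00468 and 0.000637). CUL3, the scaffold for ligases with BTB adaptors, ranged from 10.47 to 10.62 over all 12 arrays and was not called in any comparison with vehicle. SKP1, a dim member and the adaptor that joins F-box proteins to CUL1, had 6.69, 6.90 and 6.97 with both and 6.86, 6.42 and 5.98 with vehicle, and its change of 0.43 ± 0.20 was not called (adjusted p = 0.119).

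**Figure D3:**
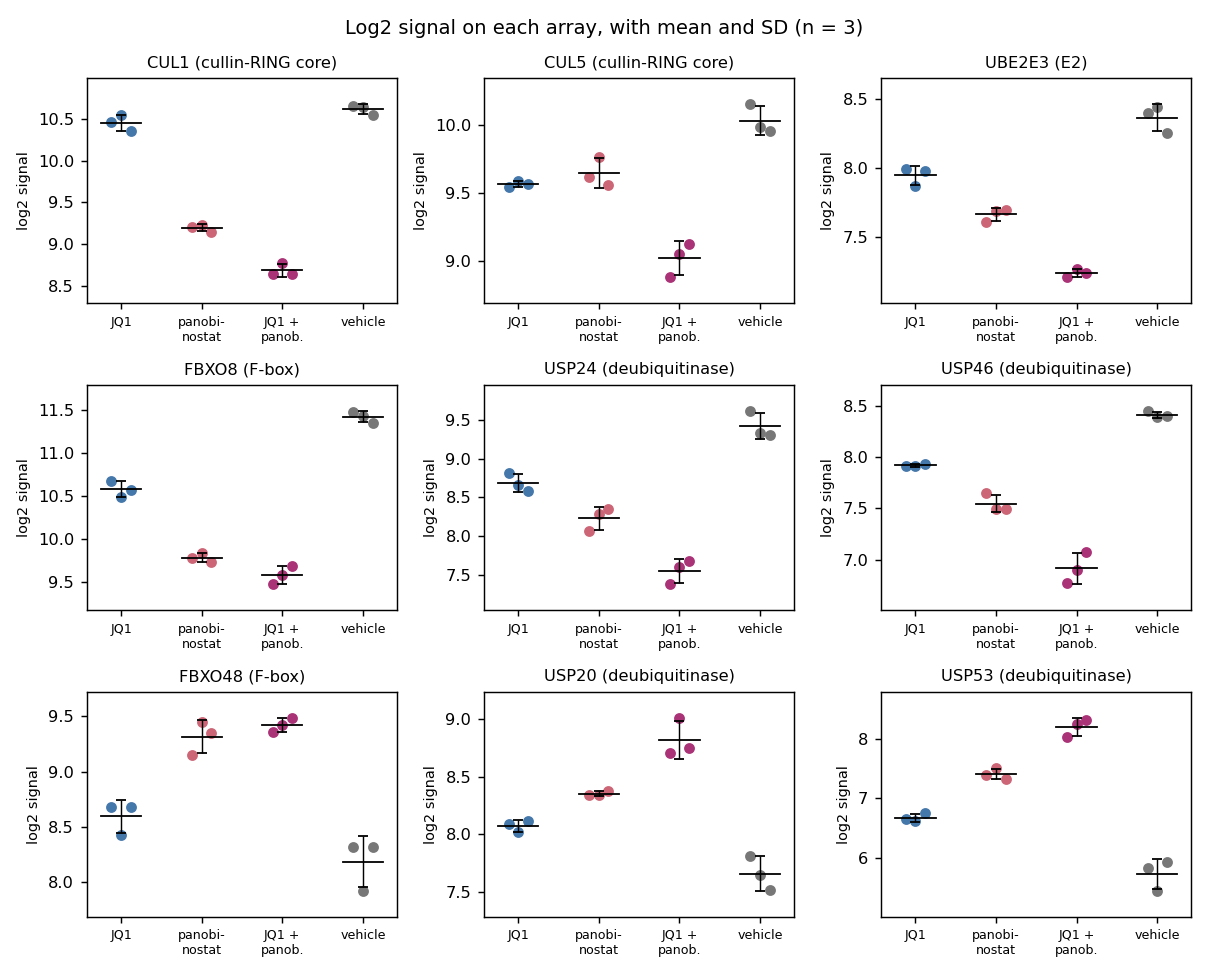
Log2 signal of 9 members on each of the 12 arrays, with the group mean (line) and SD (bar), n = 3 per group, JQ1, panobinostat, both and vehicle running left to right. CUL1 stays near vehicle with JQ1 and drops with panobinostat and with both, whereas CUL5, UBE2E3, USP24 and USP46 are lower with each compound and lowest with both, and USP53 runs the other way.

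With the combination 14 F-box genes rose and 13 fell, and the largest change of the class was a fall. FBXO8 (cluster 16981588, chromosome 4), which joins an F-box to a SEC7 domain, read 10.68, 10.49 and 10.58 in the JQ1 arrays, 9.77, 9.84 and 9.73 in the panobinostat arrays, 9.48, 9.58 and 9.68 in the arrays with both, and 11.48, 11.44 and 11.35 in the vehicle arrays. Every treated array was below every vehicle array. FBXO8 fell, with log2 changes of -0.84 with JQ1 alone (adjusted p = 3.45e-05), -1.64 with panobinostat alone (adjusted p = 2.71e-07) and -1.84 with both (3.59-fold, adjusted p = 1.67e-08). The change with both is smaller than the sum of the single changes. FBXO4 and FBXO43 are dim, with means under the 40th percentile of all genes. FBXO4 had 5.08, 5.13 and 5.33 with both and 6.29, 6.12 and 6.14 with vehicle, and fell by 1.01 (adjusted p = 1.09e-05). FBXO43, also known as EMI2, an inhibitor of the anaphase-promoting complex in meiosis, read 6.15, 6.53 and 5.82 in the JQ1 arrays, 6.33, 6.33 and 6.24 in the panobinostat arrays, 6.02, 6.13 and 6.23 in the arrays with both, and 7.13, 6.89 and 7.08 in the vehicle arrays. All treated arrays lay below the vehicle arrays, the JQ1 arrays overlapped both other treated groups, and the changes were -0.87 with JQ1, -0.73 with panobinostat and -0.90 with both (adjusted p = 0.00153, 0.00239 and 0.000331). Its mitotic relative FBXO5, or EMI1, was not called, at 0.19 with JQ1, -0.09 with panobinostat and -0.05 with both.

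FBXO7 and FBXO32 were lower with both compounds than with either alone, each step being called. FBXO7, a gene of inherited parkinsonism, had 9.74, 9.78 and 9.83 with both and 10.48, 10.50 and 10.42 with vehicle. It fell, with log2 changes of -0.27 with JQ1, -0.36 with panobinostat and -0.68 with both (adjusted p = 0.0123, 0.00116 and 5.42e-06). The call with JQ1 was lost without JQ1 replicate 2 (adjusted p = 0.0526). FBXO32, or atrogin-1, known for protein breakdown in wasting muscle, had 7.36, 7.69 and 7.75 with both and 8.48, 8.24 and 8.31 with vehicle, and fell by 0.74 (adjusted p = 0.000117). Neither single compound gave a call for FBXO32 (adjusted p = 0.395 with JQ1 and 0.0558 with panobinostat).

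The F-box genes that rose most with panobinostat and with both were FBXO48, FBXO33 and FBXO3. FBXO48 (cluster 16898548, chromosome 2) read 8.68, 8.43 and 8.68 in the JQ1 arrays, 9.15, 9.45 and 9.35 in the panobinostat arrays, 9.36, 9.42 and 9.48 in the arrays with both, and 8.32, 7.92 and 8.32 in the vehicle arrays. No treated array overlapped the vehicle arrays, and the panobinostat arrays overlapped those with both. FBXO48 rose by 0.41 ± 0.12 with JQ1 alone (adjusted p = 0.0365), 1.13 ± 0.12 with panobinostat alone (adjusted p = 3.93e-05) and 1.23 ± 0.12 with both (2.35-fold, adjusted p = 7.17e-06). The call of FBXO48 with JQ1 was lost without JQ1 replicate 1 (adjusted p = 0.116), JQ1 replicate 3 (0.12), vehicle replicate 2 (0.128) or replicate 2 with both (0.0522). FBXO33 read 8.79, 8.69 and 8.69 in the JQ1 arrays, 8.66, 8.88 and 8.87 in the panobinostat arrays, 9.21, 9.14 and 9.31 in the arrays with both, and 8.17, 7.80 and 8.09 in the vehicle arrays. The 2 single compounds overlapped, and the arrays with both were above both of them. FBXO33 rose by 0.71 ± 0.10 with JQ1, 0.78 ± 0.10 with panobinostat and 1.20 ± 0.10 with both (adjusted p = 0.000583, 0.00014 and 2.28e-06). FBXO3 had 9.01, 9.09 and 9.05 with panobinostat, 9.12, 9.13 and 9.27 with both and 8.35, 8.08 and 7.99 with vehicle, and rose by 1.04 ± 0.09 with both (2.05-fold, adjusted p = 3.4e-06).

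Some F-box genes were called with 1 single compound and not with the other. FBXL20 rose by 0.65 ± 0.09 with panobinostat (adjusted p = 0.000164), and its change with JQ1 was 0.13 ± 0.09 (adjusted p = 0.37). FBXO44 had 7.44, 7.57 and 7.42 with panobinostat and 6.74, 6.68 and 6.57 with JQ1, with no overlap, and the difference between the compounds was 0.81 ± 0.09 (adjusted p = 8.02e-05). FBXW5 went the other way, with 9.64, 9.45 and 9.71 with panobinostat and 10.20, 10.15 and 10.21 with JQ1. It rose by 0.45 ± 0.08 with JQ1 (adjusted p = 0.00319) and was not called with both (adjusted p = 0.224). FBXL20 was named after its values were seen.

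Deubiquitinases held the largest rise of all members. USP53 (cluster 16970140, chromosome 4), a protein of cell junctions with a USP domain, read 6.65, 6.61 and 6.75 in the JQ1 arrays, 7.39, 7.50 and 7.33 in the panobinostat arrays, 8.03, 8.26 and 8.32 in the arrays with both, and 5.83, 5.44 and 5.92 in the vehicle arrays. The 4 groups did not overlap, and the order from low to high was vehicle, JQ1, panobinostat, both. USP53 rose by 0.94 ± 0.12 with JQ1 alone (1.92-fold, adjusted p = 0.000283), 1.68 ± 0.12 with panobinostat alone (3.20-fold, adjusted p = 2.57e-06) and 2.47 ± 0.12 with both (5.55-fold, adjusted p = 4.53e-08). The combination stood 0.80 ± 0.12 above panobinostat alone (adjusted p = 0.00125). USP53 is not counted as dim, since that label rests on the mean over all 12 arrays. Its vehicle arrays nevertheless read below the mean of the dim member SKP1 (6.58), so its folds rest on a dim baseline.

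USP20, whose known substrates include the beta-2 adrenergic receptor, and OTUD7A, a neuronal gene of the region deleted in the 15q13.3 syndrome, followed the same order of groups. USP20 read 8.09, 8.02 and 8.12 in the JQ1 arrays, 8.34, 8.34 and 8.38 in the panobinostat arrays, 8.70, 9.01 and 8.74 in the arrays with both, and 7.82, 7.65 and 7.52 in the vehicle arrays. Its 4 groups did not overlap, and the rise was 0.41 ± 0.09 with JQ1, 0.69 ± 0.09 with panobinostat and 1.16 ± 0.09 with both (adjusted p = 0.00976, 0.000203 and 1.83e-06). OTUD7A had 8.20, 8.36 and 8.13 with both and 7.10, 6.85 and 7.08 with vehicle, and rose by 1.22 ± 0.11 (adjusted p = 4.79e-06). Its rise with JQ1, 0.44 ± 0.11 at an adjusted p of 0.0187, was not called without JQ1 replicate 1 (adjusted p = 0.0782), JQ1 replicate 2 (0.0593) or vehicle replicate 2 (0.0768), in a range of 0.0077 to 0.0782 over all alternatives. OTUD1 was the member that JQ1 raised most after USP53, with 7.69, 7.83 and 7.67 with JQ1 and 7.11, 6.92 and 6.67 with vehicle. Its rise was 0.83 ± 0.11 with JQ1, 0.49 ± 0.11 with panobinostat and 0.69 ± 0.11 with both (adjusted p = 0.000391, 0.00551 and 0.000358). USP35 rose with panobinostat, by 0.82 ± 0.10 (adjusted p = 7.31e-05), and its change with JQ1 was -0.03 ± 0.10 (adjusted p = 0.894).

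USP24 and USP46 fell most among the deubiquitinases with the combination. USP24 (cluster 16687638, chromosome 1) read 8.82, 8.66 and 8.58 in the JQ1 arrays, 8.06, 8.28 and 8.35 in the panobinostat arrays, 7.38, 7.60 and 7.68 in the arrays with both, and 9.61, 9.33 and 9.31 in the vehicle arrays. The 4 groups did not overlap. USP24 fell, with log2 changes of -0.73 with JQ1 alone (adjusted p = 0.00106), -1.19 with panobinostat alone (adjusted p = 2.05e-05) and -1.86 with both (3.64-fold, adjusted p = 2.39e-07). USP46 (cluster 16975928, chromosome 4), one of the enzymes activated by the WD-repeat protein WDR48, read 7.91, 7.91 and 7.94 in the JQ1 arrays, 7.65, 7.50 and 7.50 in the panobinostat arrays, 6.77, 6.90 and 7.07 in the arrays with both, and 8.45, 8.39 and 8.40 in the vehicle arrays. Again the 4 groups did not overlap, and USP46 fell, with log2 changes of -0.50, -0.87 and -1.50 (2.83-fold) with JQ1, panobinostat and both (adjusted p = 0.00139, 1.61e-05 and 9.54e-08).

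USP12 and USP1 are the other deubiquitinases that WDR48 activates. USP12, the nearest relative of USP46, read 8.25, 7.80 and 7.81 in the JQ1 arrays, 6.36, 7.29 and 6.99 in the panobinostat arrays, 6.77, 7.23 and 7.28 in the arrays with both, and 8.30, 7.39 and 7.67 in the vehicle arrays. Its arrays spread widely within groups, the SD reaching 0.48, and USP12 fell with panobinostat by 0.91 (adjusted p = 0.0233). That call was lost without panobinostat replicate 1 (adjusted p = 0.0913) or vehicle replicate 1 (0.0899), in a range of 0.0116 to 0.216 over all alternatives. USP1, which acts on FANCD2 and PCNA, fell by 0.27 with both (adjusted p = 0.0161, and 0.0742 without replicate 2 with both or 0.056 without vehicle replicate 3) and was not called with JQ1 (0.00 ± 0.08) or panobinostat (-0.12 ± 0.08).

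USP7 and USP13 fell with panobinostat and were not called with JQ1. USP7, which stabilises MDM2 and MYCN, read 10.72, 10.71 and 10.66 in the JQ1 arrays, 10.31, 10.39 and 10.22 in the panobinostat arrays, 9.75, 9.82 and 9.74 in the arrays with both, and 10.76, 10.84 and 10.74 in the vehicle arrays. It fell, with log2 changes of -0.47 with panobinostat (adjusted p = 0.000238) and -1.01 with both (2.01-fold, adjusted p = 3.56e-07), and its change with JQ1 was -0.08 ± 0.07 (adjusted p = 0.473). The arrays with both were below all panobinostat arrays, and JQ1 on top of panobinostat gave -0.54 ± 0.07 (adjusted p = 0.00036). The departure of USP7 from additivity, -0.45 ± 0.09, was not called (adjusted p = 0.0526). USP13 had 8.29, 8.31 and 8.31 with panobinostat, 8.06, 8.25 and 8.06 with both and 9.40, 9.24 and 9.18 with vehicle, and fell by 1.14 with both (adjusted p = 6.12e-07). USP28, which stabilises MYC against the ligase of FBXW7, rose by 0.30 ± 0.07 with panobinostat (adjusted p = 0.00687), with 9.35, 9.42 and 9.32 in panobinostat arrays and 9.11, 9.02 and 9.07 in vehicle arrays.

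Deubiquitinases known to act on histones were grouped after their values were seen. USP16 and USP21, which remove ubiquitin from histone H2A, fell with all treatments. USP21 read 9.08, 8.99 and 8.91 in the JQ1 arrays, 9.14, 9.03 and 9.09 in the panobinostat arrays, 8.38, 8.49 and 8.49 in the arrays with both, and 9.62, 9.63 and 9.67 in the vehicle arrays, so that each treated array lay below each vehicle array, and it fell, with log2 changes of -0.64, -0.55 and -1.18 with JQ1, panobinostat and both (adjusted p = 7.44e-05, 9.04e-05 and 1.32e-07). USP16 fell, with log2 changes of -0.33, -0.76 and -0.59 (adjusted p = 0.0309, 0.000112 and 0.000331), and its call with JQ1 was lost without any 1 of the JQ1 or vehicle arrays (adjusted p of 0.0573 to 0.111). USP22, the deubiquitinase of the SAGA coactivator, had 10.89, 10.75 and 10.74 with panobinostat and 11.32, 11.40 and 11.37 with vehicle. It fell, with log2 changes of -0.57 with panobinostat and -0.48 with both (adjusted p = 6.9e-05 and 0.000107), and its change with JQ1 was -0.03 ± 0.07 (adjusted p = 0.801). USP3, which also acts on histone H2A, fell, with log2 changes of -0.49 with panobinostat and -0.59 with both (adjusted p = 0.00253 and 0.000427). USP44 and USP49 have been assigned to histone H2B. USP44, a dim member, rose by 0.59 ± 0.16 with panobinostat (adjusted p = 0.0127), and its call with both (0.44 ± 0.16, adjusted p = 0.0436) was lost without any of 8 single arrays (highest 0.17, without replicate 1 with both). USP49 rose by 0.41 ± 0.12 with both (adjusted p = 0.0196). The call of USP49 was lost without vehicle replicate 2 (0.0799) or 3 (0.0584) or replicate 3 with both (0.0819). USP51, also dim, was not called, at 0.00 with JQ1, 0.23 with panobinostat and 0.14 with both.

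UCHL5 and USP14 are the members that bind the proteasome. UCHL5 had 8.93, 8.94 and 8.96 with JQ1, 9.26, 9.24 and 9.28 with panobinostat, 8.85, 8.80 and 8.95 with both and 9.24, 9.23 and 9.20 with vehicle. It fell, with log2 changes of -0.28 with JQ1 and -0.36 with both (adjusted p = 0.0077 and 0.000519), and was not called with panobinostat (adjusted p = 0.687). USP14 was not called in any comparison with vehicle, at 0.12 with JQ1, 0.03 with panobinostat and 0.18 with both. It was called in 1 comparison with median centring, with quantile normalization or without genes under the 40th percentile. The same held without replicate 1 with both, vehicle replicate 1 or the 2 arrays farthest from their groups. UCHL1, an abundant enzyme of neurons and neuroendocrine cells, ranged from 10.53 to 10.74 over the 12 arrays and was not called in any comparison with vehicle.

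The combination was set against each compound alone. Panobinostat added to JQ1 raised 26 and lowered 39 members (background 25.6% of genes called), and JQ1 added to panobinostat raised 9 and lowered 22 (background 14.7%). Among protein-coding genes at or above the 40th percentile these shares were 50.4% of members against 38.4% of genes, and 24.4% against 22.8%. A member counts as changed beyond each compound when the combination was called in 1 direction against vehicle, against JQ1 and against panobinostat. There were 16 such members of 151 (10.6%, background 7%), 4 higher (background 2.43%) and 12 lower (background 4.58%). These backgrounds cover all genes and were not counted for the brighter protein-coding genes. The 4 higher were FBXO33, OTUD7A, USP20 and USP53. The 12 lower were CUL1, CUL5, FBXO7, FBXO32, UBA3, UBE2E3, UBE2L6, UBE2Q1, USP7, USP21, USP24 and USP46. For FBXO33 the step beyond panobinostat (0.42 ± 0.10, adjusted p = 0.0162) was lost without panobinostat replicate 1 (adjusted p = 0.0629) or replicate 3 with both (0.0608), in a range of 0.00444 to 0.0629 over all alternatives. For OTUD7A the step (0.40 ± 0.11, adjusted p = 0.0361) was lost without any of 5 single arrays, most without replicate 2 with both (adjusted p = 0.13), in a range of 0.015 to 0.13. The step beyond JQ1 was lost without some single arrays for UBA3 (highest adjusted p = 0.0998, without replicate 1 with both), UBE2L6 (0.0779, without the same array) and UBE2Q1 (0.0591, without replicate 2 with both). Without panobinostat replicate 1 the 9 members raised by JQ1 on top of panobinostat became 5, and without replicate 2 with both the 26 raised by panobinostat on top of JQ1 became 17.

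All 3 treatments raised 13 members: FBXL7, FBXL12, FBXO3, FBXO33, FBXO34, FBXO48, OTUD1, OTUD7A, UBE2A, UBE2O, USP20, USP38 and USP53 (8.61%, background 4.27%). They lowered 11 (7.28%, background 5.79%): CUL5, FBXO4, FBXO7, FBXO8, FBXO43, UBE2E3, USP16, USP21, USP24, USP40 and USP46. These comparisons share their vehicle arrays, and both backgrounds cover all genes and were not counted for the brighter protein-coding genes. Of the calls behind these 24, those with JQ1 of FBXL12, FBXO7, FBXO48, OTUD7A, UBE2O, USP16 and USP38 and that with panobinostat of FBXO34 were each lost without at least 1 single array. The highest adjusted p was 0.143 for FBXL12 and 0.136 for UBE2O (both without vehicle replicate 2), 0.0794 for USP38 (without vehicle replicate 3) and 0.129 for FBXO34 (without panobinostat replicate 2). The F-box class supplied 6 of the 13 and 4 of the 11, and the deubiquitinase class 5 of each.

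Panobinostat and JQ1 were compared directly. Panobinostat arrays were higher than JQ1 arrays for 29 members and lower for 31 (background 23.3%), and among the brighter protein-coding genes 47.2% of members were called against 34.2% of genes. Without JQ1 replicate 1 the 31 became 20. USP2, a gene with a circadian rhythm in many tissues, had the largest difference upwards. It read 7.61, 7.50 and 7.42 in the JQ1 arrays, 8.48, 8.52 and 8.47 in the panobinostat arrays, 8.08, 8.26 and 8.21 in the arrays with both, and 8.28, 8.19 and 8.16 in the vehicle arrays. The JQ1 arrays lay below all vehicle arrays and the panobinostat arrays above them, while the arrays with both overlapped vehicle. USP2 fell by 0.70 with JQ1 (adjusted p = 8.49e-05), rose by 0.28 ± 0.07 with panobinostat (adjusted p = 0.0126), and was at -0.03 ± 0.07 with both (adjusted p = 0.826). A dimmer second cluster of USP2 was not called with JQ1 (-0.14, adjusted p = 0.314) or panobinostat (0.16, adjusted p = 0.211) against vehicle, but it was called in the same direction for panobinostat against JQ1 (0.30, adjusted p = 0.0257). The opposed calls against vehicle thus rest on 1 of 2 clusters, and the difference between the compounds was called by both.

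FBXO25 was the other member called in opposite directions by the single compounds (2 of 151 members, background 0.86%). It read 8.20, 8.03 and 8.07 in the JQ1 arrays, 8.70, 8.82 and 8.82 in the panobinostat arrays, 8.50, 8.62 and 8.68 in the arrays with both, and 8.48, 8.25 and 8.36 in the vehicle arrays. It fell by 0.26 with JQ1 (adjusted p = 0.0493) and rose by 0.42 ± 0.08 with panobinostat (adjusted p = 0.00251) and 0.24 ± 0.08 with both (adjusted p = 0.0411). The 4 groups did not overlap, but the call with JQ1 was lost without any of 10 of the 12 arrays (highest adjusted p = 0.161, without JQ1 replicate 2), and the call with both without any of 7 (highest 0.149, without vehicle replicate 2). UBE2Z, the E2 that UBA6 charges, was lower with panobinostat than with JQ1. It had 10.37, 10.35 and 10.32 with JQ1, 9.84, 9.78 and 9.74 with panobinostat, 10.03, 10.22 and 10.26 with both and 10.26, 10.14 and 10.04 with vehicle. UBE2Z fell by 0.36 with panobinostat (adjusted p = 0.00513), and adding JQ1 brought it up by 0.38 ± 0.08 (adjusted p = 0.00805), so that the arrays with both overlapped vehicle. Its change with JQ1, 0.20 ± 0.08, was not called (adjusted p = 0.115). USP30, a mitochondrial deubiquitinase named after its values were seen, fell by 0.49 with JQ1 (adjusted p = 0.00217), and panobinostat arrays were 0.74 ± 0.09 above JQ1 arrays (adjusted p = 0.000129).

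**Figure D4:**
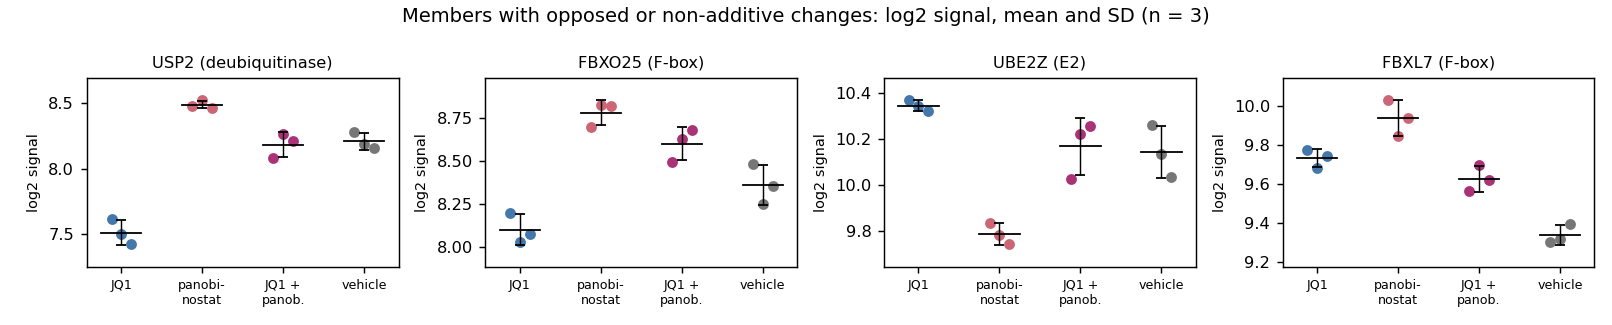
Log2 signal of USP2, FBXO25, UBE2Z and FBXL7 on each array, with group mean (line) and SD (bar), n = 3, JQ1, panobinostat, both and vehicle running left to right. USP2 is low with JQ1 and high with panobinostat, UBE2Z is low with panobinostat alone, and FBXL7 is lower with both than with panobinostat.

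The change with both compounds was set against the sum of the single changes. The departure from that sum was called for 1 member upwards and for 1 downwards (background 0.759%, with 0.309% higher and 0.45% lower). An unadjusted p under 0.05 was found for 20 of 151 members and for 2037 of all 14884 genes, a similar share. FBXL7 read 9.77, 9.68 and 9.75 in the JQ1 arrays, 10.03, 9.85 and 9.94 in the panobinostat arrays, 9.56, 9.70 and 9.62 in the arrays with both, and 9.30, 9.32 and 9.40 in the vehicle arrays. Each compound raised it, by 0.40 ± 0.07 with JQ1 and 0.60 ± 0.07 with panobinostat, and with both it stood 0.29 ± 0.07 above vehicle (adjusted p = 0.00217, 6.65e-05 and 0.00546). The arrays with both were below the panobinostat arrays (-0.31 ± 0.07, adjusted p = 0.0111), and their difference from JQ1 was not called (-0.11 ± 0.07, adjusted p = 0.311). The interaction was -0.71 ± 0.10 (adjusted p = 0.0128), with adjusted p of 0.00242 to 0.0466 over all alternatives. For FBXO8 the interaction was 0.64 ± 0.11 (adjusted p = 0.0239), the change with both falling short of the summed falls. It was not called without any of 8 single arrays (JQ1 replicates 2 and 3, panobinostat replicates 1 and 3, replicates 2 and 3 with both, and vehicle replicates 1 and 2), with adjusted p between 0.0526 and 0.0702, in a range of 0.00617 to 0.0853 over all alternatives. No other class than the F-box class had a called interaction in limma, while 1 E1, 3 E2, 1 cullin and 6 deubiquitinase genes had an unadjusted p under 0.05.

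No call in any comparison with vehicle was made for 55 of the 151 members (36.4%, background 55.1%). That background covers all genes, dim and noncoding ones included, and was not counted for the brighter protein-coding genes. The 55 were 1 of 4 E1 genes, 11 of 27 E2 genes, 4 of 9 of the cullin core, 22 of 56 F-box genes and 17 of 55 deubiquitinases. Those described above were UBA1, CUL3, SKP1, UBE2S, FBXO5, USP14, USP18, USP51 and UCHL1. FBXW11, a paralogue of the beta-TrCP substrate receptor BTRC named after its values were seen, had changes of -0.09 with JQ1, 0.19 with panobinostat and 0.02 with both. Of the 151 members 27 had a mean under the 40th percentile of all genes, and 4 (UBE2DNL, UBE2MP1, UBE2NL and UBE2Q2P1) are transcribed pseudogenes, whose probes may also bind RNA of the parent gene. Of 3 members with more than 1 cluster, FBXO22 was not called by either cluster, and FBXL18 was called higher with panobinostat and with both by its brighter cluster alone.

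Genes of the pathway outside the naming rule were counted from lists chosen with earlier results of these data known. Beside these counts stand the shares over all genes, 18.2% higher and 19.5% lower with the combination and 14.5% and 14.8% with panobinostat, and over the brighter protein-coding genes, of which 56.3% were called with the combination and 43.5% with panobinostat. In the NEDD8 cycle and the COP9 signalosome, which removes NEDD8, the combination raised 3 and lowered 5 of 13 measured genes. NAE1, the partner of UBA3 in the E1 for NEDD8, had 10.94, 10.89 and 10.91 with JQ1, 10.45, 10.49 and 10.50 with panobinostat, 10.30, 10.32 and 10.33 with both and 11.22, 11.16 and 11.23 with vehicle. It fell, with log2 changes of -0.29, -0.72 and -0.88 (adjusted p = 0.00412, 4.13e-06 and 2.97e-07), so with panobinostat 1 subunit of this enzyme fell and the other, UBA3, was not called. SENP8, a dim gene whose product matures NEDD8, rose by 0.52 ± 0.08 with JQ1 (adjusted p = 0.0012). Of the cullin adaptors and substrate receptors 1 rose and 5 fell of 10 with both. The largest change among them was that of KEAP1. It fell, with log2 changes of -0.76, -1.79 and -2.25 with JQ1, panobinostat and both (adjusted p = 0.00192, 2.83e-06 and 1.61e-07). SPOP, a substrate receptor of CUL3, fell by 0.77 with panobinostat (adjusted p = 0.000277). Of 16 subunits and activators of the anaphase-promoting complex 0 rose and 8 fell with panobinostat and also with both. ANAPC13 had 8.77, 8.70 and 8.83 with both and 9.61, 9.63 and 9.61 with vehicle, and fell by 0.85 (adjusted p = 6.06e-07).

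In the SUMO cycle 2 genes rose and 5 fell of 8 with the combination, which called 37.7% of all genes and 56.3% of the brighter protein-coding genes. SENP6, which trims SUMO chains, had 9.21, 9.18 and 9.11 with JQ1, 8.54, 8.55 and 8.41 with panobinostat, 7.51, 7.71 and 7.87 with both and 9.86, 9.87 and 9.82 with vehicle. The groups did not overlap, and SENP6 fell, with log2 changes of -0.69, -1.36 and -2.16 (adjusted p = 0.000262, 1.17e-06 and 1.35e-08). SENP1 fell, with log2 changes of -0.82, -0.39 and -1.32 with JQ1, panobinostat and both (adjusted p = 1.18e-05, 0.000753 and 4.41e-08). Of 8 deubiquitinases outside the USP, OTUD and UCHL series 3 rose and 1 fell with both. That 1 was STAMBPL1, at 6.68, 6.82 and 7.25 with both and 9.14, 8.68 and 8.99 with vehicle (-2.02 ± 0.15, adjusted p = 8.73e-07), and the largest rise was that of CYLD, a negative regulator of NF-kappaB signalling (1.01 ± 0.11, adjusted p = 1.39e-05). Of 18 other RING and HECT ligases 5 rose and 4 fell with both, near those shares, with PELI1 at 0.52 ± 0.07 and MDM4 at -0.68 ± 0.10. Of the p97 complex, the shuttle factors and the activators of proteasome genes 4 rose and 4 fell of 11, with VCP (p97) at 0.40 ± 0.06, UBQLN2 at -0.58 ± 0.07 and NFE2L2 at -0.85 ± 0.11. Of 6 other proteasome subunits and assembly factors 1 rose and 1 fell, and of the F-box proteins with other names 0 rose and 1 fell of 4. UBB, the only ubiquitin precursor gene measured of 4 listed, was not called, at 0.24 ± 0.12 with both (adjusted p = 0.152).

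Some members start close to a neighbour that runs the other way, so both genes of such a pair were read. Starts on opposite strands within 1000 bases gave 16 pairs of a member and another measured gene. Both genes were called with the combination in 7 pairs, in the same direction in 6, whereas over all 578 measured pairs both were called in 155 and in the same direction in 110 (71%). FBXO8 and CEP44 start 244 bases apart. CEP44 had 10.66, 10.54 and 10.69 with both and 11.38, 11.42 and 11.49 with vehicle, and its change was -0.80 ± 0.08 (adjusted p = 5.5e-06). FBXO48 and APLF start 291 bases apart. APLF had 7.04, 7.06 and 7.07 with JQ1, 6.48, 6.82 and 6.66 with panobinostat, 7.19, 7.22 and 7.42 with both and 6.77, 6.29 and 6.41 with vehicle. APLF rose with JQ1 (0.57 ± 0.12, adjusted p = 0.00736) and with both (0.79 ± 0.12, adjusted p = 0.000275) but was not called with panobinostat (0.17 ± 0.12, adjusted p = 0.354), the single compound with the larger rise of FBXO48. USP20 and C9orf78 start 183 bases apart, and C9orf78 rose by 0.47 ± 0.08 with both (adjusted p = 0.000426). UCHL3 and COMMD6, USP35 and KCTD21, and FBXL19 and its antisense RNA FBXL19-AS1 also moved in 1 direction, up for the pairs of UCHL3 and USP35 and down for that of FBXL19. FBXO36 and TRIP12, 714 bases apart, went apart, at 0.56 ± 0.17 for FBXO36 and -0.59 ± 0.10 for TRIP12 (adjusted p = 0.0204 and 0.000661). The call of FBXO36 was lost without vehicle replicate 2 (adjusted p = 0.0853), vehicle replicate 3 (0.0565) or replicate 2 with both (0.0577). CUL4A fell while PCID2, which starts 25 bases away, was not called (0.04 ± 0.12, adjusted p = 0.852).

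**Figure D5:**
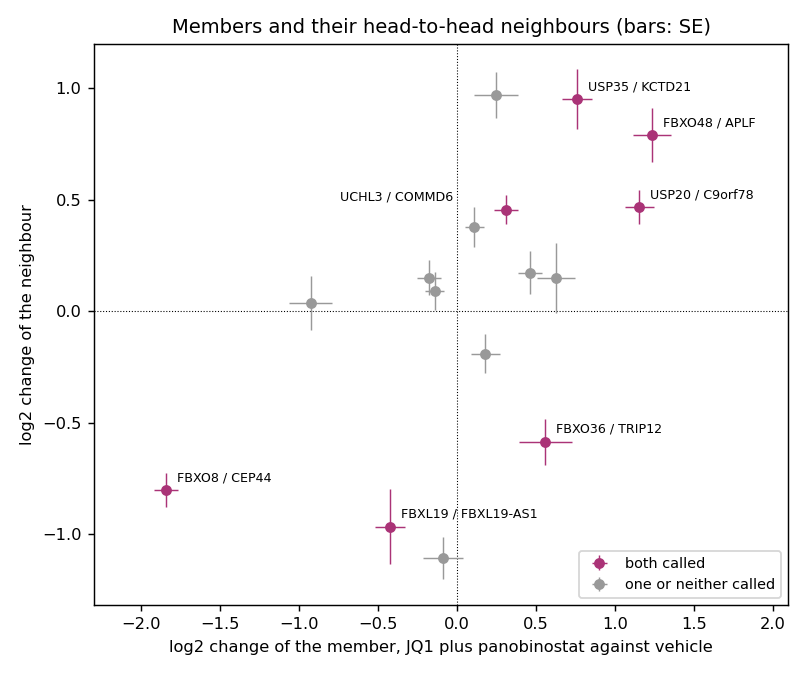
Log2 change with JQ1 plus panobinostat against vehicle of each member (horizontal) and of the gene that starts within 1000 bases on the opposite strand (vertical), with SE bars. Of the 7 pairs with both genes called, 6 have both changes on the same side of 0, and FBXO36 with TRIP12 lies in the lower right.

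Lengths of the members' genes were read from RefSeq. With the combination, median genomic length was 61.5 kb for members that rose, 51.7 kb for members that fell and 35.8 kb for members not called. Over all protein-coding genes the same medians were 31.5, 37.4 and 21.9 kb. With panobinostat the medians were 60.6, 62.9 and 36.4 kb for members that rose, fell or were not called, and 36.6, 31.2 and 23.5 kb for protein-coding genes. With JQ1 the order among members was not the same, at 36.9 kb for those that rose, 47.4 kb for those that fell and 47.9 kb for those not called, beside 35.8, 41.5 and 24.0 kb for protein-coding genes. These lengths are a description, and long genes were not compared with short ones in a test.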

How the data were processed

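Total RNA from SK-N-BE(2) cells was hybridised to Affymetrix HuGene 2.0 ST arrays, with 3 samples per group. The deposited values were made by the authors and taken as log2 signal per transcript cluster; MAS5 and affy are named in the submitters' processing notes, and the sources used here do not state the log base, the background correction or the normalization between arrays. The arrays had 53617 clusters, of which 16098 carried 1 gene symbol. Each of 14884 genes was represented by its cluster of highest mean signal, with no further scaling. The fit used limma 3.58.1 in R 4.3.3 over all genes and 12 arrays, with 1 coefficient per group and no block, and Benjamini-Hochberg adjustment over all genes within each of 7 comparisons at a threshold of 0.05. The procedure was tested on simulated data. Arrays have no read depth, so their number sets the precision. SE stands after ± beside a log2 change.

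The members and lists were chosen with earlier results of these data known. Members were named where they had up to 3 of the largest called rises or falls in their class in each comparison with vehicle, up to 5 over all members in the other comparisons, or a known role listed beforehand; others were named after their values were seen. Alternatives were median centring, quantile normalization, leaving out genes under the 40th percentile, the replicate number as a block, fits of only the arrays compared, the mean of a gene's clusters, and leaving out each array. Leaving out the 2 arrays farthest from their groups, and each array for the calls of members outside the naming rule, was chosen after seeing the data.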

Additional observations from a re-analysis of the deposited data

Results flagged for a closer look

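The change with both compounds departed from the sum of the single changes for 2 F-box genes, by a test of that difference itself. For FBXL7 the departure was -0.71 on the log2 scale (adjusted p = 0.0128 in limma), the combination standing above vehicle by less than the summed rises of the single compounds. For FBXO8 it was 0.64 (adjusted p = 0.0239), the combination lowering the gene by less than the summed falls. The departure of FBXO8 was not called in 10 of 18 alternatives, and that of FBXL7 was called in all 18.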

How the results depend on the processing

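Of 169 pairs of a named gene and a comparison, 146 kept their direction and call in every alternative run, 23 lost the call in at least 1, and 0 reversed. The most were lost with fits of only the arrays compared (12 of 167), without vehicle replicate 2 (11) and without the 2 arrays farthest from their groups (11), and 0 were lost with quantile normalization. Deviations of same-numbered arrays from their group means correlated at r of -0.693 to 0.236 over 18 pairs, 4 above 0.1. In replicate 1, r was -0.693 between panobinostat and vehicle and -0.648 between both and vehicle. In each replicate r was positive between JQ1 and vehicle (0.0956 to 0.201) and between panobinostat and both (0.0831 to 0.236). The replicate numbers may thus carry shared structure. The labels do not tie them to shared cultures, and the main fit used no block. With the replicate block 10 of the 169 lost their call, and members with a called positive interaction numbered 0. Members raised by JQ1 numbered 11 with only the arrays compared. Members with a positive interaction numbered 3 with quantile normalization and 0 without the 2 farthest arrays, and members with a negative one 2 with median centring, 2 with quantile normalization and 3 without the dim genes. The cause was not tested.

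Leaving out each array in turn gave 10 to 20 members higher and 15 to 19 lower with JQ1, 28 to 35 and 29 to 37 with panobinostat, and 27 to 37 and 40 to 46 with both. The ranges were 17 to 27 higher and 28 to 40 lower for both against JQ1, 5 to 10 and 18 to 23 for both against panobinostat, 22 to 30 and 20 to 32 for panobinostat against JQ1, 0 to 1 and 1 to 1 for the interaction, and 13 to 18 for members changed beyond each compound. Of all members called, 24 of 36 with JQ1, 56 of 69 with panobinostat and 66 of 81 with both stayed called without any single array, and 0 changed sign. With 3 arrays per group and no detection calls, small changes and dim genes are the least certain.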
